A study of Aspergillus nidulans with 6 samples.

Results

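The chromatin region described here is the single ChIP-Seq peak that overlaps *cpcA* (AN3675), the *Aspergillus nidulans* gene for the transcriptional activator of cross-pathway control. It was taken by its gene and position from the list of 468 peaks called for KaeA-HA, and it is 1 region of those 468. It was compared with the 40 other peaks of 1500 to 2600 bp, since it is itself 2070 bp long. KaeA is the catalytic subunit of the KEOPS complex, and the study asked which chromatin regions the protein is associated with.

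In cross-pathway control, starvation for 1 amino acid raises the transcription of genes for the biosynthesis of many amino acids. CpcA is the bZIP (basic region leucine zipper) activator of this response in *A. nidulans*, and it corresponds to Gcn4p of *Saccharomyces cerevisiae*. Translation of both activators is controlled through short upstream reading frames in the 5′ leader of their mRNA. KEOPS modifies an adenosine of tRNAs that read codons beginning with A, and in *S. cerevisiae* its subunits have also been found at transcribed genes.

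All 6 libraries came from mycelium of a single tagged strain grown in liquid minimal medium. It carried *kaeA*::HA, in which a haemagglutinin (HA) tag is fused to *kaeA* beside the marker *A.f. pyrG*, together with the alleles *pyrG89*, *argB2* and *pabaB22*, a *nkuA* deletion made with *argB* (*nkuA*Δ::*argB*) and *riboB2*. The labels number the *riboB* allele differently in each library, whereas the methods of the study describe 1 strain. Chromatin was fixed with 1% formaldehyde for 15 min and sonicated. Then 3 libraries were made from input DNA and 3 from DNA immunoprecipitated (IP) with the anti-HA antibody 12CA5, each set labelled as biological replicates 1 to 3. Input and IP therefore share the tag and all markers, and a library from an untagged strain or without antibody was not analysed here. Signal from the tagged protein and precipitation that does not depend on the tag cannot be told apart from these libraries. The counts on the 468 peaks summed to between 162458 and 377238 per library. A single peak on chromosome V held 11.6% of them in each input library. In IP replicates 1, 2 and 3 it held 8.76, 11.0 and 7.54%.

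The *cpcA* peak lies on chromosome II from 3346409 to 3348478 (ASM1142v1) and covers nearly the whole gene. The RefSeq gene extends from 3346379 to 3348550, a length of 2172 bp, of which the peak covers 95.3%, leaving out 30 bp at the low-coordinate end and 72 bp at the other. The MACS2 summit, the position of highest pileup in the merged libraries, is at 3346842. It is 463 bp from the low-coordinate end of the gene and 1708 bp from the other end, so the signal was highest in the part of the gene nearer to its low-coordinate end. The authors classed the peak as 5′ UTR, a label for the peak as a whole that does not place the summit. The strand of the gene was not used here, so the summit was not placed relative to its 5′ end.

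Among peaks of like length the position of the *cpcA* summit was common. It lay at 20.9% of the peak length from the nearer peak end. The median of the 40 other peaks was 27.8%, from 3.47 to 48.6%, and 14 of them had their summit closer to an end. The 41 peaks of 1500 to 2600 bp comprised 18 of the class 5′ UTR, 11 of the class exon, 10 of the class 3′ UTR and 2 of the class promoter. These classes are those of the authors' annotation of all peaks. For *aclA*, *aclB* and *glnA* it gives 3′ UTR, whereas the paper lists 5′ UTR. Each of the 40 others overlapped a gene too, with a median coverage of 87.8% of the gene, and 28 of them covered at least 80%. A peak over most of a gene was thus the usual form in this length range.

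**Figure D1:**
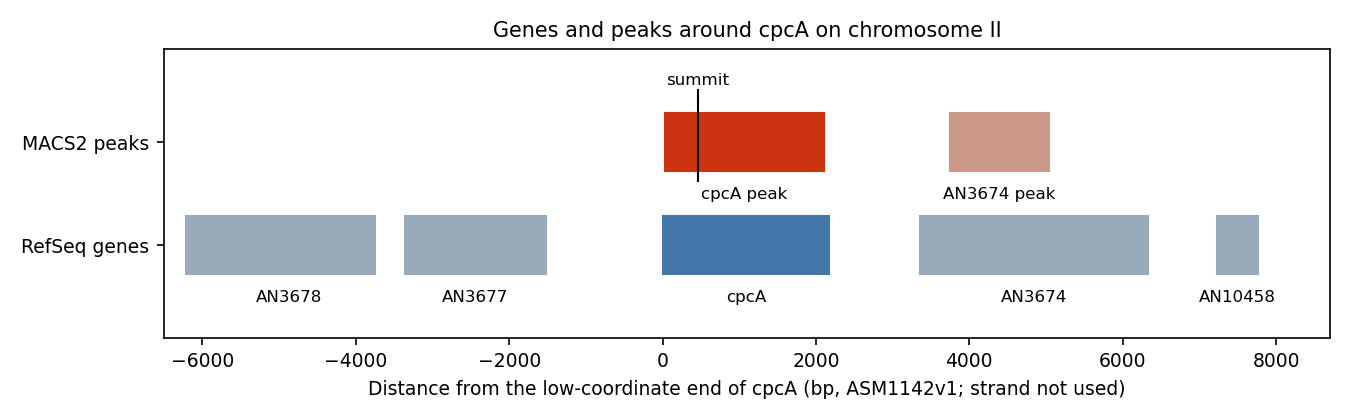
Map of RefSeq genes (lower row) and MACS2 peaks (upper row) around *cpcA*, as the distance in bp from its low-coordinate end. The *cpcA* peak fills the gene, with the summit (vertical line) 463 bp from that end; the next peak begins 1653 bp beyond it, within AN3674, and AN3677 on the other side has none.

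Of the genes on either side, only AN3674 holds a peak. AN3677, 1525 bp away on the low-coordinate side, has no peak, and the nearest peak on that side lies 390683 bp away, overlaps no gene and had a log2 fold change of −0.07 (SE 0.12). On the other side, AN3674 begins 1183 bp from the end of *cpcA* and holds a peak of 1287 bp (3350132 to 3351418). That peak had normalized counts of 691, 694 and 702 in input and of 774, 759 and 794 in IP. These groups did not overlap, but the log2 fold change of 0.16 (SE 0.08) did not pass the test (edgeR, adjusted p = 0.217).

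The *cpcA* peak encodes the DNA-binding part of the activator. The authors translated the peak sequences and searched them for Pfam domains, and the only domain in the *cpcA* peak was a basic region leucine zipper. It spans residues 479 to 521 of a translated stretch of 534 residues (E-value 2e-07), near its end. Of the 186 peaks with any Pfam domain, only 1 other had this one. That peak, in AN4361 on chromosome III (2276875 to 2277174), is 300 bp long, and its log2 fold change was 0.11 (SE 0.13, edgeR adjusted p = 0.741). This count rests on Pfam alone. The paper also describes *hapX* (AN8251) as a bZIP factor, but the only domain annotated in its peak was a Hap4 binding motif.

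MACS2 placed *cpcA* above the median peak, by a smaller margin among peaks of like length. The authors called peaks on merged replicates, so these values have no replicate error. The pileup at the summit was 259 fragments, against a median of 189 over all peaks and 231 over the 40 others of like length. It held rank 108 of 468 and rank 12 of the 41 peaks of like length. The fold enrichment, the ratio of IP pileup at the summit to that predicted from input nearby, was 2.29, which was rank 44 of 468 and rank 10 of the 41 peaks of like length. The median over all peaks was 1.53, and that of the 40 others 1.93, from 1.56 to 6.18. The −log10 of the q-value was 28.9, rank 49 of 468, where the median of all peaks was 5.68 and that of the 40 others 16.1.

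At *cpcA*, every IP library exceeded every input library once counts were scaled with TMM factors over the 468 peaks. Before normalization the counts were 1086, 1277 and 693 in input replicates 1, 2 and 3, and 2130, 1267 and 1532 in IP replicates 1, 2 and 3. These raw counts also vary with the summed counts on peaks of each library, and IP replicate 2 and input replicate 2 were nearly equal. After scaling to effective library size with TMM factors, the counts were 1160, 1157 and 1083 in input and 1539, 1386 and 1501 in IP. The groups then did not overlap, with IP replicate 2 the lowest of the IP libraries and input replicate 3 the lowest of all. Among all 468 peaks, 16.5% likewise had all IP libraries above all input libraries. The same held for 26 of the 40 others of like length, so this separation was common in that range.

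The means were 1133 ± 43.4 in input and 1475 ± 79.7 in IP (SD, n = 3). The coefficient of variation between replicates was 3.83% in input and 5.40% in IP, where the medians of all peaks were 6.77% and 8.98%. The medians of the 40 others of like length were 3.80% and 5.75%, so this spread was usual for that length. The 9 possible ratios of an IP to an input library lay between 1.20 and 1.42. The log2 fold change was 0.38 (SE 0.08), or 1.30-fold with a 95% interval from 1.16 to 1.46, and passed edgeR's quasi-likelihood test with an adjusted p of 0.00186. Of all 468 peaks, 16.2% passed this test at an adjusted p under 0.05, with 52 (11.1%) higher and 24 (5.13%) lower in IP. The exact two-sided permutation test of the log2 normalized counts gave p = 0.1, the smallest that 3 libraries against 3 allow. MACS2 called the peaks from these same libraries, merged, where IP exceeded the input nearby. Neither test, nor the separation of the groups, is therefore independent of that selection.

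This difference is relative to the whole set of peaks, and the choice of reference set moved it. Without each library in turn it was 0.34 to 0.42 and passed the test every time. Scaled to the peaks of 1500 to 2600 bp it was 0.05 and did not pass (adjusted p = 0.534), with 25 of 468 peaks (5.34%) higher and 321 (68.6%) lower. Scaled to the 60 peaks that MACS2 gave a fold enrichment of 2 or more, an alternative chosen after seeing the data, it was −0.19 and passed as lower in IP (adjusted p = 0.0269), as did 90.8% of all peaks, while 1.92% were higher. No total of mapped reads was used here, so the level of IP over input genome-wide cannot be read from these counts.

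**Figure D2:**
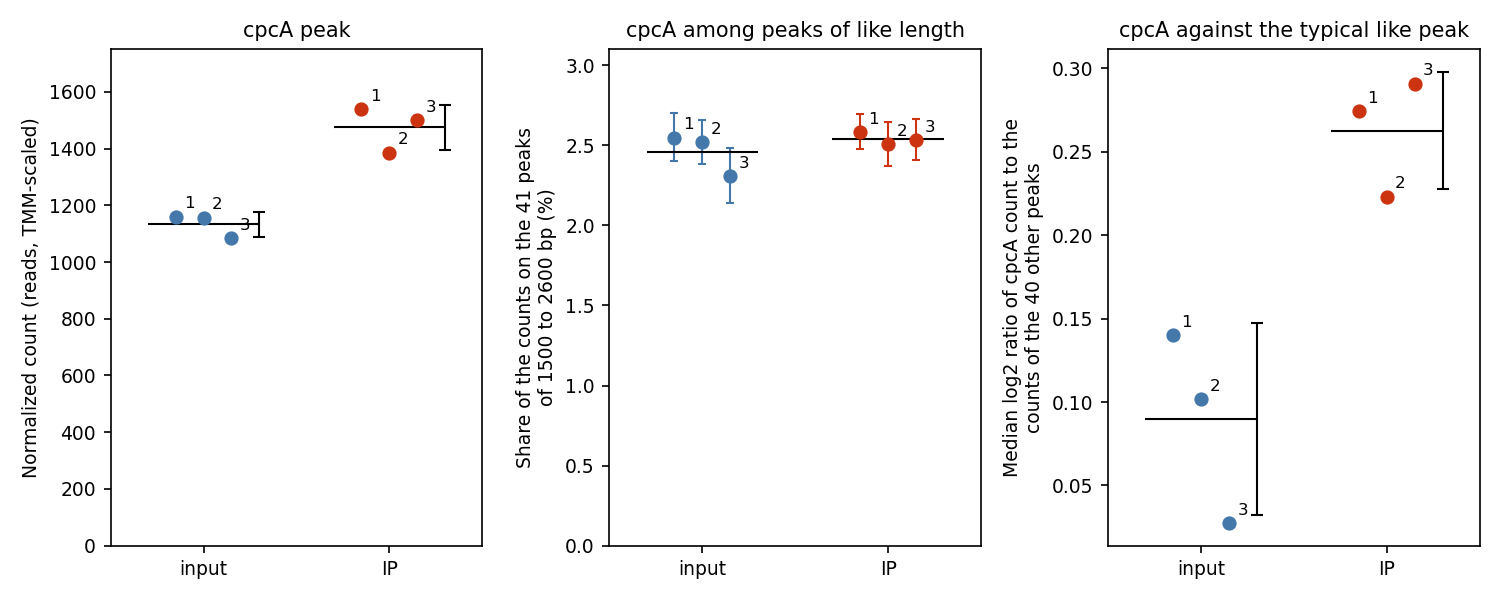
The *cpcA* peak in each library (points, numbered by replicate), with group means (horizontal lines). Left, TMM-normalized counts with SD: input 1083 to 1160, IP 1386 to 1539. Middle, share of the counts on the 41 peaks of 1500 to 2600 bp, with 95% exact binomial intervals: 2.31 to 2.58% with overlapping groups. Right, median log2 ratio of the *cpcA* count to those of the 40 other peaks, with SD; all IP values lie above all input values.

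Per kb of peak, *cpcA* was among the lower peaks in input and near the middle in IP. Its mean normalized count per kb was 547 in input, rank 419 of 468, and 713 in IP, rank 194 of 468. Over the 40 others of like length, the medians per kb were 560 in input and 628 in IP, and *cpcA* held rank 26 of 41 in input and rank 13 of 41 in IP. Its input level lay just under the median for peaks of this length and its IP level above it. The median input of all peaks, most of them shorter, was 656 per kb.

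Longer peaks had higher fold changes, and *cpcA* lay above this trend. The median log2 fold change was −0.08 over the 269 peaks under 500 bp, 0.01 over the 147 peaks of 500 to 1500 bp, 0.19 over the 40 others of 1500 to 2600 bp and 0.55 over the 11 longer peaks. Spearman's rho of length with log2 fold change was 0.51 across all 468 peaks and 0.11 across the 41 of like length, as a description of peaks that share the same 6 libraries. At the length of *cpcA* the lowess trend was at 0.21. With the trend removed, a correction chosen after seeing the data, the log2 fold change of *cpcA* was 0.17 (SE 0.08) and did not pass the test (adjusted p = 0.244), which 8.12% of all peaks then passed as higher and 2.35% as lower. Input per kb also differed with length, as given above, and its part in the trend was not tested.

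**Figure D3:**
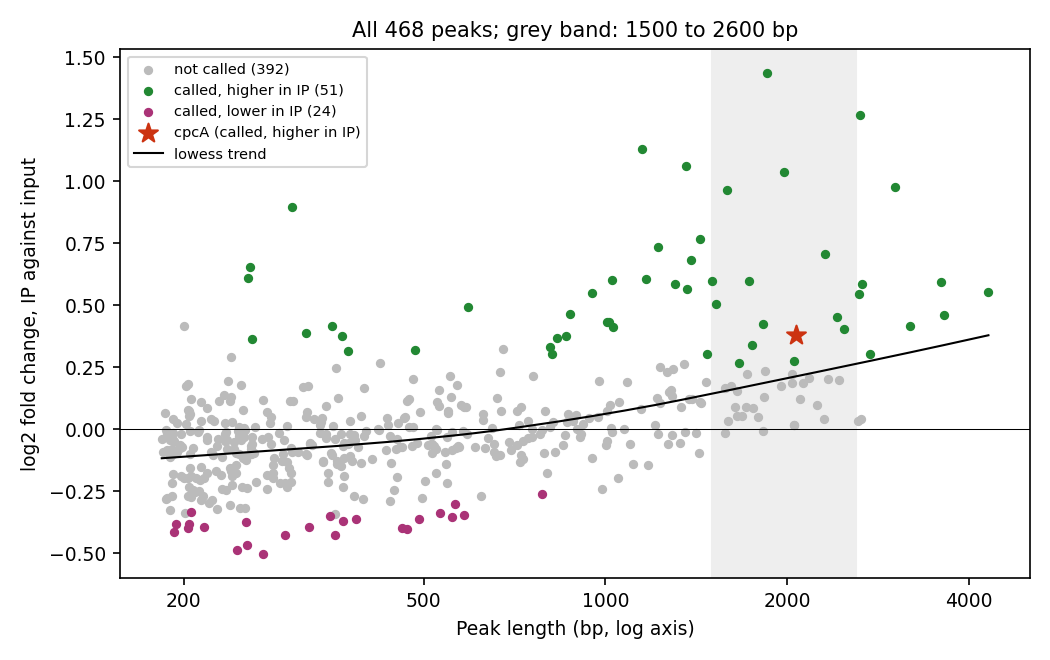
Log2 fold change (IP against input) of each of the 468 peaks by peak length (log axis), with calls at an adjusted p under 0.05 in colour and the lowess trend as a line. *cpcA* (star, 0.38) lies in the grey band of 1500 to 2600 bp above the trend value of 0.21; all 24 lower calls are left of the band.

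Among the peaks of like length *cpcA* held rank 11 of 41 by log2 fold change. Of the 40 others, 13 were higher in IP by the same test, 0 were lower and 27 did not pass; 20 had an unadjusted p under 0.05, and DESeq2 called 14 higher and 0 lower. Their quartiles were 0.09 and 0.36, so *cpcA* lay just above the upper quartile. The 95% interval of *cpcA* held 10 of the other peaks' values, while 6 lay above it and 24 below. The highest was AN7170, with a helix-loop-helix DNA-binding domain, at 1.43 (SE 0.08), where input was 1083, 1127 and 1214 and IP 3231, 3042 and 2967. The lowest was AN2875, with an aldolase domain, at −0.01 (SE 0.08), where input was 864, 826 and 855 and IP 875, 789 and 852, with overlapping groups. Of the 17 others given the class 5′ UTR in the authors' peak annotation, 8 were called higher, with a median of 0.23.

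The 3 peaks on each side of *cpcA* in this order had values within its 95% interval; differences between single peaks were not tested. Above it were *mstE* (AN5860), a sugar transporter gene, at 0.40 (SE 0.08), *sidA* (AN5823), for an enzyme of siderophore biosynthesis, at 0.42 (SE 0.09), and *aclB* (AN2436), for a subunit of ATP citrate lyase, at 0.45 (SE 0.08). Below it were *aclA* (AN2435), for the other subunit of that enzyme, at 0.34 (SE 0.08), *metH* (AN4443), for methionine synthase, at 0.27 (SE 0.08), and *glnA* (AN4159), for glutamine synthetase, at 0.26 (SE 0.08). All 6 were called higher. The calls of *metH* and *glnA* did not hold throughout. Both were lost with library size alone, at 0.17 (adjusted p = 0.168) and 0.16 (adjusted p = 0.215), and among the peaks with a mean count of at least 500, at 0.15 and 0.14. *metH* was also lost without any 1 of the 3 input libraries, at 0.26 to 0.30, and *glnA* without any library except IP replicate 2, at 0.21 to 0.30. The call of *cpcA* did not depend on any single library.

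The next shorter and the next longer peak were closer to no change, while *metH*, at 2054 bp, lay within the interval of *cpcA* as given above. The next shorter, of 2057 bp in AN0885, which has a homeobox domain, had 1210, 1236 and 1135 normalized counts in input and 1300, 1109 and 1215 in IP, with overlapping groups and a log2 fold change of 0.02 (SE 0.08, edgeR adjusted p = 0.946). The next longer, of 2105 bp in *mirB* (AN8540), a siderophore transporter gene, had 1111, 1076 and 1049 in input and 1204, 1143 and 1173 in IP. Its groups did not overlap, and its log2 fold change of 0.12 (SE 0.08) did not pass (edgeR adjusted p = 0.384). Both values lie below the 95% interval of *cpcA*, which runs from 0.21 to 0.55 on the log2 scale.

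**Figure D4:**
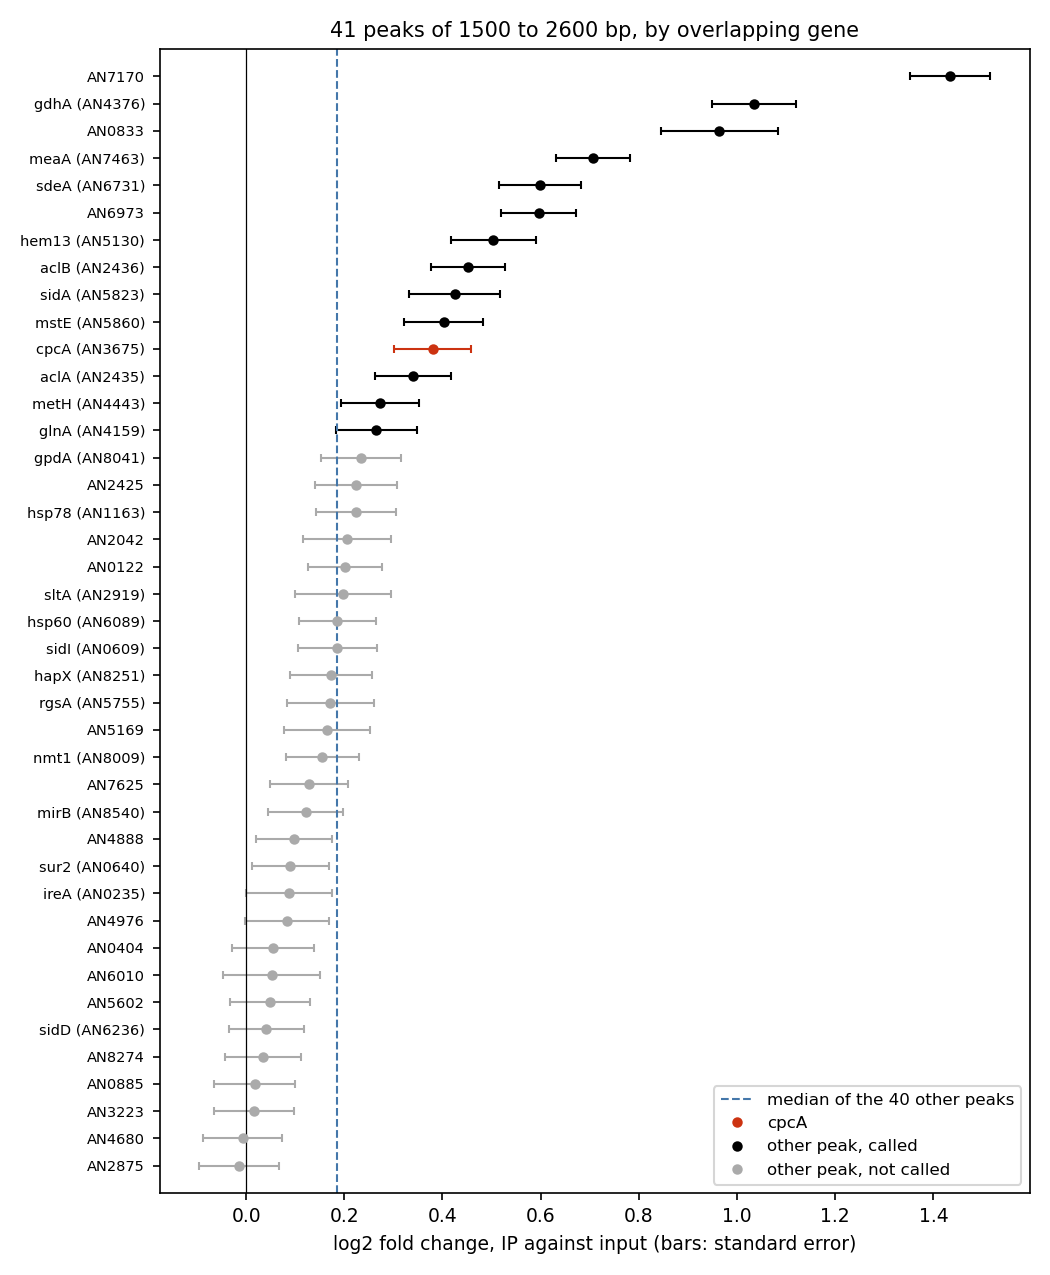
Log2 fold change (IP against input) ± SE of the 41 peaks of 1500 to 2600 bp, named by overlapping gene and ordered by value; black points passed the test and grey points did not. *cpcA* (red, 0.38) is 11th, between *mstE* and *aclA*, to the right of the median of the 40 others (dashed line, 0.19).

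The comparison with peaks of like length depended on whether their sum or their middle was taken. As a share of the counts on the 41 peaks, *cpcA* held 2.55, 2.52 and 2.31% in input and 2.58, 2.51 and 2.53% in IP. The groups overlapped, with means of 2.46 ± 0.130% and 2.54 ± 0.0389% (SD, n = 3), and the difference of the log2 ratio of *cpcA* to the summed counts of the 40 others was 0.05 (exact two-sided permutation test, p = 0.5, smallest possible 0.1). Each share has a counting error of its own, and the exact 95% binomial interval of the shallowest library, input replicate 3, was 2.14 to 2.49%. PCR copies are not independent molecules, so these intervals cover counting error only. The 40 others together took 17.6 to 18.0% of all counts on peaks in input and 19.5 to 21.7% in IP.

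Against the typical peak of like length *cpcA* was higher in every IP library. The median log2 ratio of the *cpcA* count to the counts of the 40 others was 0.14, 0.10 and 0.03 in input and 0.27, 0.22 and 0.29 in IP. The groups did not overlap, and the difference was 0.17 (exact two-sided permutation test, p = 0.1, the smallest possible). Taken peak by peak, the ratio was higher in all IP than in all input libraries for 23 of the 40, lower for 6 and overlapping for 11. Against all 467 other peaks of any length it was higher for 73.4% and lower for 4.28%. In the fit, *cpcA* minus the median of the 40 others was 0.19. It was between 0.16 and 0.23 without each library in turn, at rank 10 or 11 of 41, and 0.19 with the length trend removed. Scaling moves all peaks alike and so cannot change it.

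**Figure D5:**
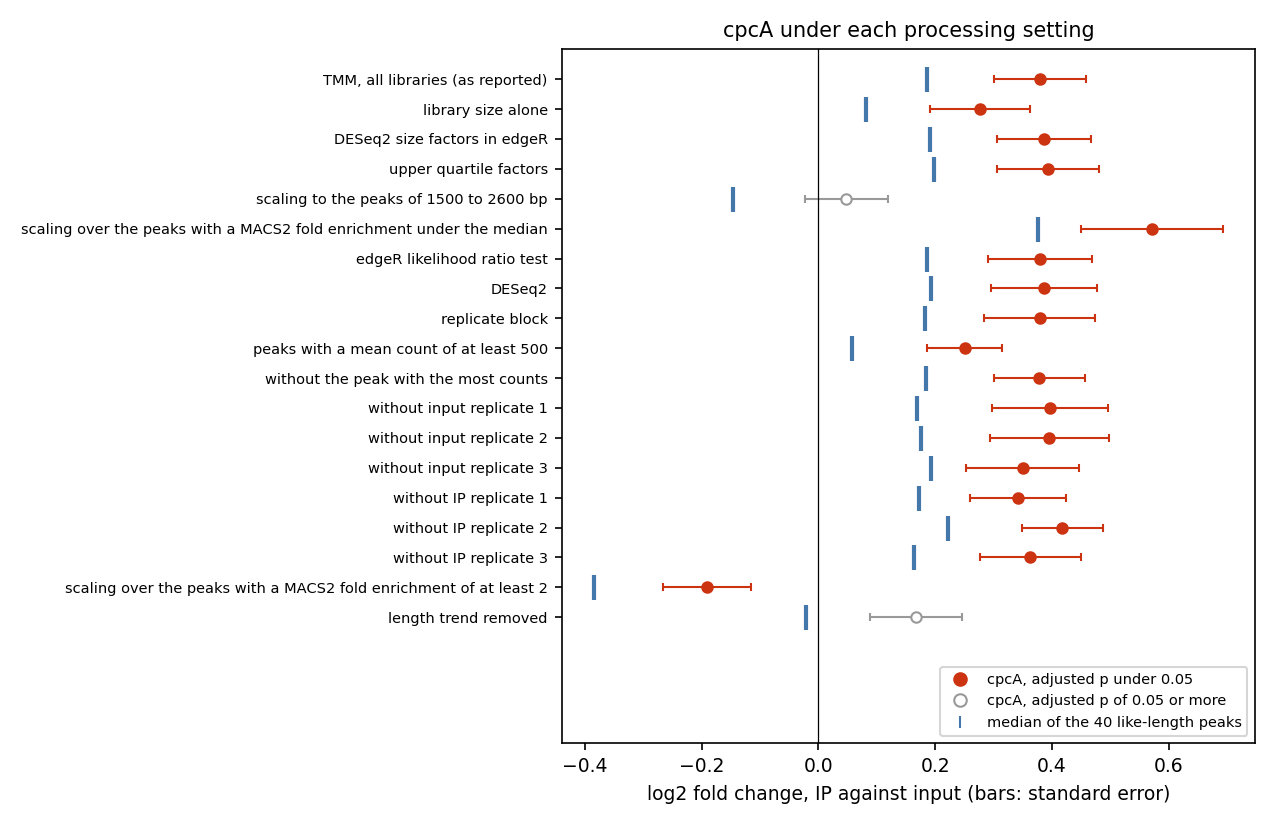
Log2 fold change of *cpcA* ± SE (points) and the median of the 40 other peaks of 1500 to 2600 bp (blue ticks) under the reported and 18 alternative settings; filled points passed the test. The value of *cpcA* moves from −0.19 to 0.57 with the scaling, and the ticks move with it, since scaling shifts all peaks alike; without 1 library the distance between them is 0.16 to 0.23.

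The peaks with the profile most like *cpcA* over the 6 libraries were those of genes with other roles. Likeness was the Euclidean distance between log2 normalized counts, each centred on its own mean, over all 468 peaks and 6 libraries. The nearest was *pmaA* (AN4859), for the plasma membrane proton pump, at a distance of 0.116. Next were AN3555, a gene with a small heat shock protein domain, at 0.166, *aclB* at 0.174, and AN0709 and *aclA* at 0.193 each. The *pmaA* peak, 3196 bp long, had normalized counts of 1721, 1722 and 1727 in input and 2458, 2185 and 2246 in IP, and a log2 fold change of 0.42 (SE 0.08, edgeR adjusted p = 0.000676). As in *cpcA*, IP replicate 1 was the highest library and IP replicate 2 the lowest of the IP libraries. The log2 fold change of AN3555 was 0.33 (SE 0.09, adjusted p = 0.0145), and its call was lost without input replicate 1, input replicate 3 or IP replicate 1, at 0.29 to 0.32, and with library size alone (0.23, adjusted p = 0.0911).

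Of the 3 regulators of cross-pathway control that were looked up, *cpcA* was the only one with a peak. Neither *jlbA* (AN1812), for another bZIP factor of amino acid metabolism, nor AN0948 overlapped one. The list of peaks holds only regions that MACS2 called, so the level of IP over input at these genes was not measured here. The same holds for the 10 other genes of amino acid biosynthesis that were looked up, among them *trpB*, *trpC* and *argB*, of which 0 overlapped a peak, and for the 4 other KEOPS subunits, with 0 peaks (2 of these 4 were found in the gene table).

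The study grouped *cpcA* with 6 other genes of amino acid metabolism, chosen from these same peaks, so their direction is not independent evidence. These 7 genes overlap 8 peaks, of which 5 were higher in IP, 0 lower and 3 did not pass; over all peaks 11.1% were higher. Of these 8 peaks 5, with *cpcA* among them, are of 1500 to 2600 bp. In that range 13 of the 40 peaks other than *cpcA* were higher. Those 13 include *gdhA*, *metH* and *glnA*, so they are not a separate background. The calls of *metH* and *glnA* were lost in the settings given above. Their median log2 fold change was 0.27, against −0.02 over all peaks. Scaled to the enriched peaks described above, where 90.8% of all peaks were called lower, *gdhA* and *trxA* stayed above 0 and the other 6 peaks were below it. The strongest was *gdhA* (AN4376), for the NADP-dependent glutamate dehydrogenase, with 1250, 1203 and 1431 in input, 2672, 2483 and 2784 in IP and a log2 fold change of 1.03 (SE 0.09, edgeR adjusted p = 3.76e-08). Each IP library at *gdhA* was far above each input library, and *cpcA* was below it by more than the standard errors of both. *trxA* (AN0170), for thioredoxin, had 0.73 (SE 0.08), and *metH* and *glnA* lay below *cpcA*, as given above.

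The members that did not pass were AN2042, with a flavin and a NAD-binding domain, at 0.21 (SE 0.09), AN2526, for the acetohydroxy acid isomeroreductase of branched-chain amino acid synthesis, at 0.19 (SE 0.09), and another, shorter peak in *metH* (chromosome III, 2029815 to 2030234), at −0.00025 (SE 0.12). AN2042 passed without IP replicate 2, at 0.26. Among the 8 peaks, those of *gdhA* and *trxA* had higher values than *cpcA*, and the other 5 had lower ones.

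Of 11 transcription regulators looked up, 10 were in the gene table and 5 overlapped a peak. Of these 5, *cpcA* and AN0709 were higher in IP, as were 11.1% of all peaks. AN0709 has C2H2 zinc fingers, and its peak of 2743 bp had 1700, 1650 and 1760 in input and 2266, 1996 and 2031 in IP. The groups did not overlap, and the log2 fold change was 0.30 (SE 0.08, edgeR adjusted p = 0.0125). It did not pass without input replicate 1, input replicate 2 or IP replicate 1, at 0.24 to 0.30, nor with library size alone (0.20, adjusted p = 0.101). The 3 others did not pass, with 0.17 at *hapX* (AN8251, SE 0.08), for a repressor active under iron limitation, 0.20 at *sltA* (AN2919, SE 0.10), for a zinc-finger factor of cation tolerance, and 0.07 at *nosA* (AN1848, SE 0.11), for a regulator of sexual development. *hapX* and *sltA* passed without IP replicate 2, at 0.21 and 0.27. The highest of these 5 values was that of *cpcA*. The list does not hold every peak with a DNA-binding domain. Outside it were AN7170, with a higher value (1.43), and AN0885 and AN4361, with lower ones (0.02 and 0.11).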

How the data were processed

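The authors trimmed reads with Trimmomatic (quality 20, reads under 50 nt discarded), mapped them with BWA to ASM1142v1, removed optical duplicates with Picard and called peaks with MACS2 on merged IP against merged input; versions and the counting mode are not given in the sources used here. The deposited counts per peak and library are not normalized. The pileup (a coverage signal), the fold enrichment (a ratio) and the −log10 q-value were deposited as MACS2 wrote them, and the Pfam E-values (a score) come from the authors' InterProScan search. The deposited log2 fold changes, p-values and FDR of the authors' own edgeR comparison were not used.

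Counts were tested with edgeR 4.0.16 (R 4.3.3, limma 3.58.1; TMM factors, quasi-likelihood test, Benjamini-Hochberg over all 468 peaks, threshold 0.05, no block). Normalized counts are scaled to the mean effective library size. Lists are described by counts and medians, with no set test. Peaks were assigned to genes by at least 1 bp of overlap with RefSeq genes of ASM1142v1, since the nearest gene in the authors' annotation lay 33605 bp from the *cpcA* peak. No sequences were used. On simulated data for this comparison over 468 peaks, 81% of 1.3-fold and 100% of 2-fold changes were recovered, and 8 of 268 unchanged peaks were called. Increases and decreases were equally frequent in that simulation, so it does not test the choice of reference set. No library was a copy of another. Alternatives (other scalings, DESeq2 1.42.0, a count filter, left-out libraries, length ranges, a replicate block) are given in the closing section. *cpcA*, the lists and the peak rule (peaks overlapping a listed gene, with a bZIP domain, or next to *cpcA* in position, length, fold change or profile, and the extremes among like lengths) were chosen with earlier results of these data known. Exact permutation tests and intervals used scipy 1.17.1, and plots matplotlib 3.10.9. The labels call the replicates biological, and the methods of the study describe independent experiments.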

Additional observations from a re-analysis of the deposited data

How the results depend on the processing

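The *cpcA* peak was higher in IP and passed the test with library size alone, other scaling factors, DESeq2, the likelihood ratio test, a count filter, and without any single library, at 0.25 to 0.57 on the log2 scale. It did not pass when scaled to the peaks of 1500 to 2600 bp (0.048) or with the length trend removed (0.17), and was lower (−0.19) when scaled to peaks with a fold enrichment of at least 2; the last 2 were chosen after seeing the data. Each scaling shifts all peaks alike: the median of all was −0.02 as reported, −0.13 with library size alone, −0.36 and −0.59 with the scalings to like-length and to enriched peaks, and 0.16 with that to peaks under the median enrichment. These 4 called 38 higher and 60 lower, 25 and 321, 9 and 425, and 84 and 0, against 52 and 24. The total called, 76, was 346 with like-length scaling, 434 with enriched-peak scaling and 49 with the trend removed, and 47 to 132 without 1 library (49 without input replicate 1, 47 without IP replicate 1, 132 without IP replicate 2). Of the 40 peaks of like length, 13 were called as reported, all higher, and 22 (6 higher, 16 lower), 34 (3 higher, 31 lower) and 7 (all higher) in those settings, 25 (all higher) with scaling to peaks under the median enrichment and 11 to 23 without 1 library (23 without IP replicate 2). The log2 difference of the *cpcA* share was 0.05 as reported, 0.04 with a narrower or a wider range of lengths, 0.17 with the median over peaks and 0.0051 to 0.078 without 1 library. Deviations of same-numbered libraries correlated at −0.11, −0.05 and 0.03, so no pairing by replicate number was seen in the counts. This does not show that the libraries were unpaired. With a replicate block *cpcA* was at 0.38 (edgeR adjusted p = 0.000743), 83 peaks were called, and the block changed no other call of a named peak. Calls of *metH*, *glnA*, AN0709 and AN3555 were lost with library size alone (0.17, 0.16, 0.20 and 0.23) and with a mean count of at least 500 (0.15, 0.14, 0.17 and 0.20). With the trend removed, calls were lost at AN0709, *metH*, *glnA*, *pmaA*, *mstE*, *aclA*, *aclB* and *sidA* (0.028 to 0.24), with like-length scaling at AN3555, *aclA*, *mstE*, *pmaA*, *sidA* and *aclB* (0.0016 to 0.12), and with enriched-peak scaling at *trxA* (0.17). Named peaks that changed sign were with library size alone AN0885 (−0.086) and *nosA* (−0.029), and with a mean count of at least 500 AN0885 (−0.11) and *mirB* (−0.0075). With like-length scaling they were AN0709 (−0.028), AN0885 (−0.32), *nosA* (−0.26), AN2042 (−0.13), AN2526 (−0.14), *sltA* (−0.13), AN3674 (−0.17), *glnA* (−0.065), *hapX* (−0.16), *mirB* (−0.21), *metH* (−0.054) and AN4361 (−0.22). With enriched-peak scaling they were AN0709 (−0.27), AN0885 (−0.55), *nosA* (−0.49), AN2042 (−0.36), *aclA* (−0.23), *aclB* (−0.12), AN2526 (−0.37), *sltA* (−0.37), AN3555 (−0.24), AN3674 (−0.41), *glnA* (−0.30), *pmaA* (−0.15), *sidA* (−0.14), *mstE* (−0.17), *hapX* (−0.39), *mirB* (−0.45), *metH* (−0.29) and AN4361 (−0.45). With the trend removed they were AN0885 (−0.19), AN2042 (−0.018), *sltA* (−0.051), *hapX* (−0.028) and *mirB* (−0.10). The 3 named peaks just under 0 were above it in some settings: the shorter *metH* peak with DESeq2 size factors (0.0067), upper quartile factors (0.014), DESeq2 (0.0041), scaling to peaks under the median enrichment (0.19) and the trend removed (0.055), the intergenic peak with the last 2 (0.12 and 0.038), and AN2875 with scaling to peaks under the median enrichment (0.18). Without 1 library, the shorter *metH* peak ranged from −0.063 to 0.090, the intergenic peak from −0.17 to 0.017, AN2875 from −0.053 to 0.024, AN0885 ranged from −0.046 to 0.070 and *nosA* from −0.057 to 0.16.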
